A study of Mus musculus with 22 samples.

Results

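The genes described here encode the potassium channels: every autosomal protein-coding gene of the GENCODE M21 basic annotation whose symbol is Kcn, 1 or more lower-case letters and a closing number. The rule gave 91 of 20720 autosomal protein-coding genes, in 20 subfamilies. They were grouped into 7 classes by role. There were 16 Kv1 to Kv4 pore subunits, 10 electrically silent Kv subunits and 13 KCNQ and EAG pore subunits. The Kcnma, Kcnn, Kcnt and Kcnu subfamilies, mostly calcium- or sodium-activated channels, gave 8 pore subunits. The rest were 15 inward rectifiers, 14 tandem-pore-domain (K2P) channels and 15 auxiliary subunits. The rule uses symbols and annotation only, but it was set with earlier results of these data known.

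Chromatin immunoprecipitation with sequencing (ChIP-seq) had been done on mouse embryonic stem cells kept in serum with LIF, the cytokine that holds them undifferentiated. Homozygous gene-trap cells, labelled Mtf2 GT/GT, carry a trapping cassette that disrupts the Mtf2 coding sequence. They had 1 deposited peak list each for EZH2, H3K27me3 and H3K4me3, and wild-type E14 cells had the same 3 lists and 1 for MTF2. Each of the 7 lists stands for 2 libraries, and the other 8 of the 22 libraries were not analysed here. The parental line of the gene-trap cells is not given, so genotype and line background cannot be told apart, and without an MTF2 list from those cells the loss of MTF2 could not be checked. A list holds positions without heights or read counts, so depth is unknown, replicate error could not be measured, and no difference below carries a test. A peak missing from a list can mean too little depth or a strict threshold as well as no enrichment. Promoters of 10 of 10 embryonic stem cell marker genes, among them Pou5f1, Nanog and Sox2, had H3K4me3 in Mtf2 GT/GT cells and in wild-type cells. H3K4me3 was also at 67.5% of all autosomal protein-coding promoters in Mtf2 GT/GT cells and 67.0% in wild-type cells, so this count says little about cell state.

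Potassium channels let potassium leave or enter the cell down its gradient and thereby set the resting potential and end action potentials. Many family members are known from neurons, muscle, secretory epithelia or sensory cells. Polycomb repressive complex 2 (PRC2) places the repressive mark H3K27me3 through its catalytic subunit EZH2, and MTF2 is an accessory subunit that binds CpG-rich DNA. H3K4me3 marks active and poised gene starts, and a start with both H3K4me3 and H3K27me3 is called bivalent.

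The sequences of 4 starts show the range of DNA that the comparisons turn on, from a promoter with all marks to one with none. All are 200 bases of the RefSeq copy of GRCm38, on the gene's strand from 5′ to 3′, with every CpG in capitals. The first 2 come from the EZH2 peaks left at Kcnk9 in Mtf2 GT/GT cells, at chr15:72546505-72546704 and chr15:72547059-72547258 on the minus strand, between genes and upstream of the start. They hold 30 and 11 CpG.
Kcnk9 gene-trap EZH2 peak 1: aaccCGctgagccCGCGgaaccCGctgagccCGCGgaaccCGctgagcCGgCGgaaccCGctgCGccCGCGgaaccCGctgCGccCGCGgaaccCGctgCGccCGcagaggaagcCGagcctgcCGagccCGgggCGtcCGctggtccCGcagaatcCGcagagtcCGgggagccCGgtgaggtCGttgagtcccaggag
Kcnk9 gene-trap EZH2 peak 2: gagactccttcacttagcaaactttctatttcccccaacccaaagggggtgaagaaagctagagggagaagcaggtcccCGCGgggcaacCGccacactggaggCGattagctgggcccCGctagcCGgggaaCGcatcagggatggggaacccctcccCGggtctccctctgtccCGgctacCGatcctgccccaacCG

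The next lies in the wild-type MTF2 peak of Kcns1 (chr2:164171114-164171313, minus strand, between genes), a promoter without EZH2 in Mtf2 GT/GT cells that had H3K4me3 at its start in those cells and not in wild-type cells. The gene kept an H3K27me3 peak of 4649 bp in Mtf2 GT/GT cells, beginning 400 bp downstream of the start. The sequence holds 16 CpG.
Kcns1 MTF2 peak: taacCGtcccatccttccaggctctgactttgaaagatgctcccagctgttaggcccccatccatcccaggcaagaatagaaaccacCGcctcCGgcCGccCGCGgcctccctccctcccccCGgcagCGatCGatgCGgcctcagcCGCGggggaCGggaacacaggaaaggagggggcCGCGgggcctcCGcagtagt

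The last 2 lie directly upstream of starts without MTF2. Kcnk5 (chr14:20181810-20182009, minus strand, between genes) had H3K4me3 alone, and Kcnj1 (chr9:32393784-32393983, plus strand, intron) had no peak in any list. They hold 14 and 2 CpG.
Kcnk5 upstream of the TSS: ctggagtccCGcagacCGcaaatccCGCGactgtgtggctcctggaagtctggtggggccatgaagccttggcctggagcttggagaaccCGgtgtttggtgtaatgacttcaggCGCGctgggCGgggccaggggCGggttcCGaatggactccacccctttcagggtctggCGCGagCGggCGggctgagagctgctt
Kcnj1 upstream of the TSS: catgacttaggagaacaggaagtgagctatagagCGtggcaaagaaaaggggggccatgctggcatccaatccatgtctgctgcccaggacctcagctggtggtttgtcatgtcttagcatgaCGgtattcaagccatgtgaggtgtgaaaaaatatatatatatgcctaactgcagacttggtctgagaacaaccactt

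In wild-type cells most potassium channel promoters carried the PRC2 marks. Nearly all of those with H3K27me3 were bivalent, as were nearly all such promoters over all genes. A promoter was the window within 1 kb of any protein-coding transcription start site (TSS) of the gene, and it had a mark when a peak touched that window. MTF2 was listed at 57 of 91 promoters (62.6%, exact Clopper-Pearson 95% interval 51.9 to 72.6%, which covers counting over genes only), against 16.4% of all autosomal protein-coding genes. EZH2 was listed at 58 (63.7%, 53.0 to 73.6%), against 17.1%, and H3K27me3 at 65 (71.4%, 61.0 to 80.4%), against 20.0%. H3K4me3, at 72 promoters (79.1%, 69.3 to 86.9%), stood much closer to its share of 67.0% over all genes.

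The combination of all 4 wild-type marks occurred at 55 potassium channel promoters (60.4%), against 15.1% of all genes, and was the most frequent state. Among the 72 promoters with H3K4me3, 62 (86.1%) also had H3K27me3, against 28.3% over all genes. Taken the other way, 62 of the 65 promoters with H3K27me3 also had H3K4me3 (95.4%), close to the 94.9% over all genes. H3K4me3 alone, the most frequent state over all genes at 46.9%, was found at 9 potassium channel promoters (9.89%). No mark at all was found at 16 (17.6%), against 32.0%. All 57 promoters with MTF2 had H3K27me3, as did 95.9% of all promoters with MTF2.

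Mtf2 GT/GT cells had almost no EZH2 and little H3K27me3 at these promoters, while H3K4me3 was listed as often as in wild-type cells. EZH2 was listed at 1 of 91 promoters (1.10%, interval 0.0278 to 5.97%; all genes 0.772%), H3K27me3 at 9 (9.89%, 4.62 to 17.9%; all genes 2.82%) and H3K4me3 at 72 (79.1%; all genes 67.5%). A promoter is said to have kept a mark when the lists of both genotypes have it, and to have lost it when only the wild-type list does. Of the 58 promoters with EZH2 in wild-type cells, 1 kept it (1.72%, interval 0.0436 to 9.24%), against 4.34% over all genes, and 57 lost it (98.3%, all genes 95.7%). Of the 65 with H3K27me3, 9 kept it (13.8%, 6.53 to 24.7%), against 14% over all genes, and 56 lost it (86.2%, all genes 86.0%). H3K4me3 was kept at 71 of 72 (98.6%), against 98.8%. The counts by class below rest on few promoters each and stand beside these shares over all genes. Differences between classes were not tested.

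**Figure D1:**
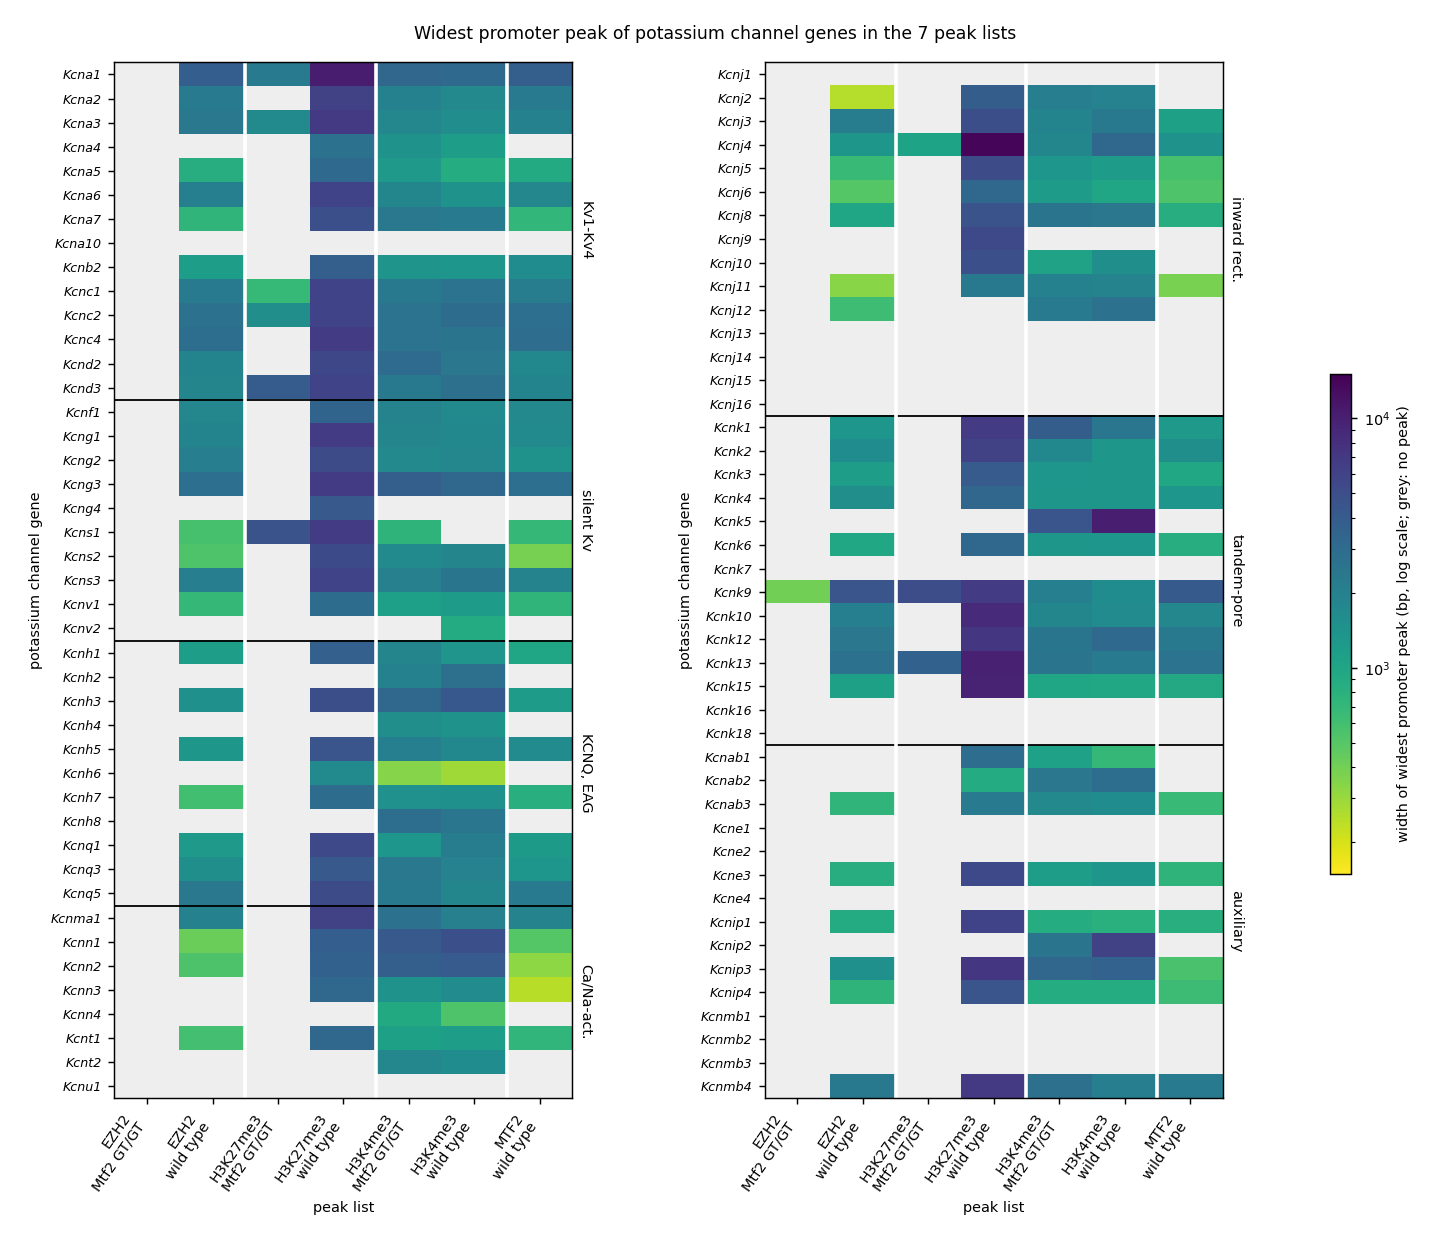
Each row is a potassium channel gene, with 4 of the 91 not drawn, and each column a peak list; colour gives the width in bp of the widest promoter peak on a log scale and grey means no peak. Columns of Mtf2 GT/GT cells hold 1 coloured cell for EZH2 and 9 for H3K27me3, while the paired H3K4me3 columns look alike, differing in a coloured cell at Kcns1 and Kcnv2.

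The Kv1 to Kv4 subunits form the classical voltage-gated channels that repolarise neurons and heart muscle. H3K27me3 was listed at 5 of their 16 promoters in Mtf2 GT/GT cells and at 14 in wild-type cells, and EZH2 at 0 in Mtf2 GT/GT cells and 13 in wild-type cells. MTF2 was at 13 in wild-type cells, with a median widest peak of 1886 bp. Kcna1, a low-threshold channel of axons, had the widest peaks of the class: its H3K27me3 peak was 2285 bp in Mtf2 GT/GT cells and 10322 bp in wild-type cells, beside 3752 bp of MTF2. Kcna3, which also sets the potential of T lymphocytes, had 1668 bp of H3K27me3 in Mtf2 GT/GT cells and 6883 bp in wild-type cells. Kcnc1 and Kcnc2 serve neurons that fire at high rates. Kcnc1 had 690 bp of H3K27me3 in Mtf2 GT/GT cells and 5943 bp in wild-type cells. Kcnc2 had 1536 bp in Mtf2 GT/GT cells and 5899 bp in wild-type cells. Kcnd3, a pore subunit of the transient outward current, had 3926 bp in Mtf2 GT/GT cells and 5900 bp in wild-type cells, the largest remainder of the 5.

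The other members of the class ended without H3K27me3 in the gene-trap list, whatever the width of their wild-type peaks. Kcnc4, with 2869 bp of MTF2, 2819 bp of EZH2 and 6584 bp of H3K27me3 in wild-type cells, had neither EZH2 nor H3K27me3 in Mtf2 GT/GT cells. Kcna4, an inactivating Kv1 subunit, had 2644 bp of H3K27me3 in wild-type cells without MTF2 or EZH2. Kcna10 had no peak in any list.

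Electrically silent Kv subunits make no channel alone and join Kv2 subunits to alter their gating. H3K27me3 was at 1 of their 10 promoters in Mtf2 GT/GT cells, that of Kcns1 with 4649 bp, and at 9 in wild-type cells. EZH2 was at 0 in Mtf2 GT/GT cells and 8 in wild-type cells, and MTF2 at 8 in wild-type cells. Kcng3 led the class with 2767 bp of MTF2 and 2807 bp of EZH2, and with 6783 bp of H3K27me3, the same width as at Kcng1. Neither EZH2 nor H3K27me3 was listed at Kcng3 or Kcng1 in Mtf2 GT/GT cells. Wild-type MTF2 peaks measured 1925 bp at Kcns3 and 1704 bp at Kcnf1, and wild-type EZH2 peaks 2092 bp at Kcns3 and 2097 bp at Kcng2. Kcng4 had 4117 bp of H3K27me3 at its start without MTF2, EZH2 or H3K4me3 there. It nevertheless had an MTF2 peak of 1019 bp inside the gene.

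Both potassium channel promoters whose H3K4me3 differed between the lists belong to this class. Kcns1 had an H3K4me3 peak of 748 bp at its TSS in Mtf2 GT/GT cells and none in wild-type cells. A second H3K4me3 peak, 1437 bp in Mtf2 GT/GT cells and 1079 bp in wild-type cells, lay downstream, and with a promoter window of 2.5 kb no promoter had H3K4me3 in Mtf2 GT/GT cells only. Kcns1 was 1 of 19 potassium channel promoters without wild-type H3K4me3, and over all genes 4.02% of such promoters had H3K4me3 in Mtf2 GT/GT cells. Kcnv2, whose product works with Kv2 channels in photoreceptors, had none in Mtf2 GT/GT cells and 876 bp in wild-type cells, where 1.18% of all genes with the mark lost it. That peak was centred 734 bp downstream and did not hold the TSS, and with the TSS required inside the peak the one promoter with H3K4me3 in wild-type cells only was Kcng2. With 1 list a genotype, neither difference could be set against replicate error.

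KCNQ subunits carry the M-current of neurons and the slow delayed rectifier of the heart, and the EAG family includes the cardiac channel encoded by Kcnh2. No promoter of this class had EZH2 or H3K27me3 in Mtf2 GT/GT cells, against 9 with EZH2 and 10 with H3K27me3 of 13 in wild-type cells, and all 13 had H3K4me3 in both. All 5 Kcnq promoters carried the 4 marks in wild-type cells. Kcnq5 had 2256 bp of MTF2 and 5127 bp of H3K27me3, and Kcnq1 had 1214 bp of MTF2 and 5429 bp of H3K27me3. Kcnq3, a subunit of the M-channel, had 1502 bp of EZH2. No EZH2 or H3K27me3 peak was listed at these promoters in Mtf2 GT/GT cells.

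The Kcnh subfamily was divided, with MTF2 at 4 of its 8 promoters. Kcnh5 had the widest MTF2 peak of these, 1635 bp, and Kcnh3 the widest H3K27me3 peak, 4963 bp, both in wild-type cells. Kcnh2, Kcnh4 and Kcnh8 had H3K4me3 alone. At Kcnh2 the wider of 2 H3K4me3 promoter peaks was 1979 bp in Mtf2 GT/GT cells and 2749 bp in wild-type cells. At Kcnh8 the H3K4me3 peak was 2837 bp in Mtf2 GT/GT cells and 2482 bp in wild-type cells. Kcnh6 had 1672 bp of H3K27me3 and 287 bp of H3K4me3 in wild-type cells without MTF2 or EZH2, and 348 bp of H3K4me3 with no H3K27me3 in Mtf2 GT/GT cells.

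Channels of the Kcnma, Kcnn, Kcnt and Kcnu subfamilies, mostly opened by intracellular calcium or sodium, had the narrowest MTF2 peaks. Their median was 501 bp over the 5 marked promoters of 8. H3K27me3 was at none of the 8 in Mtf2 GT/GT cells and at 5 in wild-type cells. Kcnma1, the pore of the large-conductance calcium-activated channel, stood apart from the rest with 1897 bp of MTF2, 1983 bp of EZH2 and 6163 bp of H3K27me3. Kcnn1 to Kcnn3 encode the small-conductance channels that follow trains of action potentials, and their MTF2 peaks measured 501, 327 and 248 bp. Kcnn3 was the only potassium channel promoter with MTF2 and without EZH2. Kcnt1, a sodium-activated channel, had 720 bp of MTF2 and 589 bp of EZH2. Its relative Kcnt2 had H3K4me3 alone, as had Kcnn4 of lymphocytes and red cells, and Kcnu1, a channel of sperm, had no promoter peak.

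Inward rectifiers pass potassium more easily into the cell than out and stabilise the resting potential. H3K27me3 was at 1 of 15 promoters in Mtf2 GT/GT cells and at 9 in wild-type cells, EZH2 at 0 in Mtf2 GT/GT cells and 8 in wild-type cells, and MTF2 at 6 in wild-type cells. Kcnj4, expressed in the forebrain, had 1042 bp of H3K27me3 in Mtf2 GT/GT cells, against 13843 bp in wild-type cells, the widest H3K27me3 peak of the whole family. Its MTF2 peak was 1421 bp. Kcnj3, Kcnj5 and Kcnj6 encode G protein-gated channels and had MTF2 peaks of 1098, 574 and 531 bp. Kcnj8 and Kcnj11 form the pore of ATP-sensitive channels and had MTF2 peaks of 844 and 382 bp.

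The remaining inward rectifiers showed partial combinations or nothing. Kcnj2, the classical inward rectifier of heart and muscle, had 250 bp of EZH2 and 3842 bp of H3K27me3 without MTF2. Kcnj12 had 626 bp of EZH2 with H3K4me3 and no H3K27me3, the one potassium channel promoter with EZH2 of which this was true. Kcnj9 had 5410 bp of H3K27me3 and no other mark at its start, and Kcnj10, the main glial inward rectifier, had 4883 bp of H3K27me3 with H3K4me3. EZH2 and H3K27me3 were not listed at these promoters in Mtf2 GT/GT cells. Kcnj1, Kcnj13, Kcnj14, Kcnj15 and Kcnj16 had no promoter peak in any list; several of them serve kidney and other epithelia.

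Tandem-pore-domain channels carry background potassium current. EZH2 was at 1 of 14 promoters in Mtf2 GT/GT cells and at 10 in wild-type cells, and H3K27me3 at 2 in Mtf2 GT/GT cells and 10 in wild-type cells. Kcnk9, an acid-sensitive channel whose gene is imprinted in brain, was the only member of the family with EZH2 in both genotypes. Its 2 remaining EZH2 peaks, 388 and 397 bp, covered 785 bp or 17.5% of the 4481 bp wild-type peak, and its H3K27me3 peak was 5064 bp in Mtf2 GT/GT cells and 6619 bp in wild-type cells. Neither EZH2 peak held the TSS or reached 500 bp, so that under either of these stricter requirements no potassium channel promoter had EZH2 in Mtf2 GT/GT cells. Kcnk13, a relative inhibited by halothane, had 3602 bp of H3K27me3 in Mtf2 GT/GT cells and 9861 bp in wild-type cells, with 2605 bp of MTF2.

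Apart from Kcnk13, the members of the class with wider wild-type H3K27me3 than Kcnk9 had no EZH2 or H3K27me3 in Mtf2 GT/GT cells. Kcnk15 and Kcnk10 had 9698 and 8609 bp of H3K27me3 in wild-type cells and none in Mtf2 GT/GT cells. Kcnk12 had 2342 bp of MTF2 and 2412 bp of EZH2, with the same outcome. Kcnk5, an alkali-activated channel of kidney and brainstem, had H3K4me3 alone, in a peak of 4480 bp in Mtf2 GT/GT cells and 10107 bp in wild-type cells. Kcnk7, Kcnk16 and Kcnk18 had no promoter peak.

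Auxiliary subunits tune the channels that others form and include the Kcnab, Kcne, Kcnip and Kcnmb genes. H3K27me3 was at 0 of 15 promoters in Mtf2 GT/GT cells and at 8 in wild-type cells, EZH2 at 0 in Mtf2 GT/GT cells and 6 in wild-type cells, and MTF2 at 6 in wild-type cells. Kcnmb4, the neuronal beta subunit of the large-conductance channel, had 2228 bp of MTF2, 2325 bp of EZH2 and 6869 bp of H3K27me3, whereas Kcnmb1, Kcnmb2 and Kcnmb3 had no promoter peak. Of the Kcne genes, which encode small single-span subunits, Kcne3 had 745 bp of MTF2 and Kcne1, Kcne2 and Kcne4 had no peak. Kcnip1, Kcnip3 and Kcnip4 encode calcium-binding partners of Kv4 channels and carried the 4 marks; Kcnip3 had 7218 bp of H3K27me3 and 1497 bp of EZH2, and Kcnip1 834 bp of MTF2 and 5977 bp of H3K27me3. Kcnip2, known for its role in the heart, had H3K4me3 alone. In Mtf2 GT/GT cells it was in 2 promoter peaks, the wider of 2567 bp, and in wild-type cells in 1 peak of 6124 bp. Kcnab1 and Kcnab2, beta subunits of Kv1 channels, had 2900 and 876 bp of H3K27me3 with H3K4me3 and neither MTF2 nor EZH2.

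In wild-type cells MTF2 and EZH2 peaks overlapped each other at these promoters and lay mostly inside H3K27me3 peaks. Of 68 MTF2 promoter peaks, 66 touched an EZH2 peak (97.1%, against 94.4% of those of all genes), and 27 lay wholly inside one (39.7%, against 42%). MTF2 peaks lay wholly inside an H3K27me3 peak in 64 cases (94.1%, against 88.4%). EZH2 peaks did so in 69 of 74 cases (93.2%, against 86.3%). Median widths were 1036 bp for MTF2, 1066 bp for EZH2 and 4968 bp for H3K27me3, against 1014, 948 and 4128 bp at the promoters of all genes. Across 56 potassium channel genes the widths of the widest MTF2 and EZH2 peaks went together (Spearman rho 0.94, all genes 0.96), and across 57 genes those of EZH2 and H3K27me3 less closely (0.64, all genes 0.73). These relations are over genes within single lists that share their cells and annotation, and are given as descriptions.

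Few of these peaks extended to the promoter of another gene. No peak in any list reached the promoters of more than 1 potassium channel gene. In Mtf2 GT/GT and in wild-type cells the H3K4me3 peak of 1 of 72 marked genes, Kcnab2, also reached another gene's promoter, that of Nphp4, against 19.2% of all marked genes in Mtf2 GT/GT cells and 19.7% in wild-type cells. None of the 65 H3K27me3 genes with an H3K27me3 promoter peak did so, against 10.7% of all genes with H3K27me3.

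In wild-type cells most marked genes with several starts had the mark at every start. Of 54 potassium channel genes with more than 1 TSS, 32 had MTF2, at every start in 20 (62.5%, against 59.6% over all genes) and at some starts in 12. H3K27me3 was at every start in 27 of 36 (75.0%, against 64.3%) and H3K4me3 in 31 of 41 (75.6%, against 77.4%). MTF2 touched the window of 6 of 8 starts of Kcnma1, 4 of 6 of Kcnk2, a mechanosensitive channel, and 2 of 5 of Kcnip4, and H3K27me3 the same number of starts in each. At Kcnn1 MTF2 touched 1 of 5 starts while H3K27me3 touched all 5. Peaks inside gene bodies, outside every promoter window of the gene, were listed for MTF2 in 14 genes in wild-type cells (15.4%, against 4.81% of all genes). The widest were 1860 bp in Kcnk12 and 1619 bp in Kcns1. Body peaks of H3K27me3 were listed in 1 gene, Kcng2, in Mtf2 GT/GT cells (1.10%, against 0.980% of all genes) and in 17 in wild-type cells (18.7%, against 5.55%). Potassium channel genes were also longer, with a median of 32346 bp against 17594 bp over all genes, and the part of length in these shares was not tested.

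What remained of H3K27me3 in Mtf2 GT/GT cells was a part of each wild-type domain. Together the widest wild-type promoter peaks covered 344834 bp over the 65 genes, and gene-trap peaks covered 26306 bp of them (7.63%). For EZH2 the figures were 785 bp of 88870 bp (0.883%). The covered part was 76.5% at Kcnk9, 68.8% at Kcns1, 66.5% at Kcnd3, 36.5% at Kcnk13, 26.0% at Kcnc2, 24.2% at Kcna3, 22.1% at Kcna1, 11.6% at Kcnc1 and 7.53% at Kcnj4. A further gene, Kcng2, had 1844 bp inside its 5273 bp domain (35.0%), outside the promoter window.

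The remaining H3K27me3 lay mostly to the side of the start. In Mtf2 GT/GT cells the TSS was inside the peak at 3 of the 9 promoters, Kcnd3, Kcnk13 and Kcnk9, against 9 of 9 in wild-type cells. Peak centres lay downstream at 8 of 9 promoters in Mtf2 GT/GT cells and at 4 of 9 in wild-type cells, and their median offset from the nearest TSS was 1478 bp in Mtf2 GT/GT cells and -55 bp in wild-type cells. Over the 577 genes of the genome that kept H3K27me3, the TSS was inside the peak at 52.0% in Mtf2 GT/GT cells and 96.9% in wild-type cells. Centres lay downstream at 66.4% of these genes in Mtf2 GT/GT cells and 64.6% in wild-type cells, with a median offset of 774 bp in Mtf2 GT/GT cells and 380 bp in wild-type cells. At Kcna1 the remaining peak ran from 532 to 2816 bp downstream, within a wild-type domain from -5233 to 5088 bp. At Kcns1 it ran from 400 to 5048 bp downstream and covered a second MTF2 peak of 1619 bp that began 1892 bp past the TSS. At Kcnk9 it ran from -3567 to 1496 bp and took in both remaining EZH2 peaks, which lay upstream between -1013 and -67 bp.

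**Figure D2:**
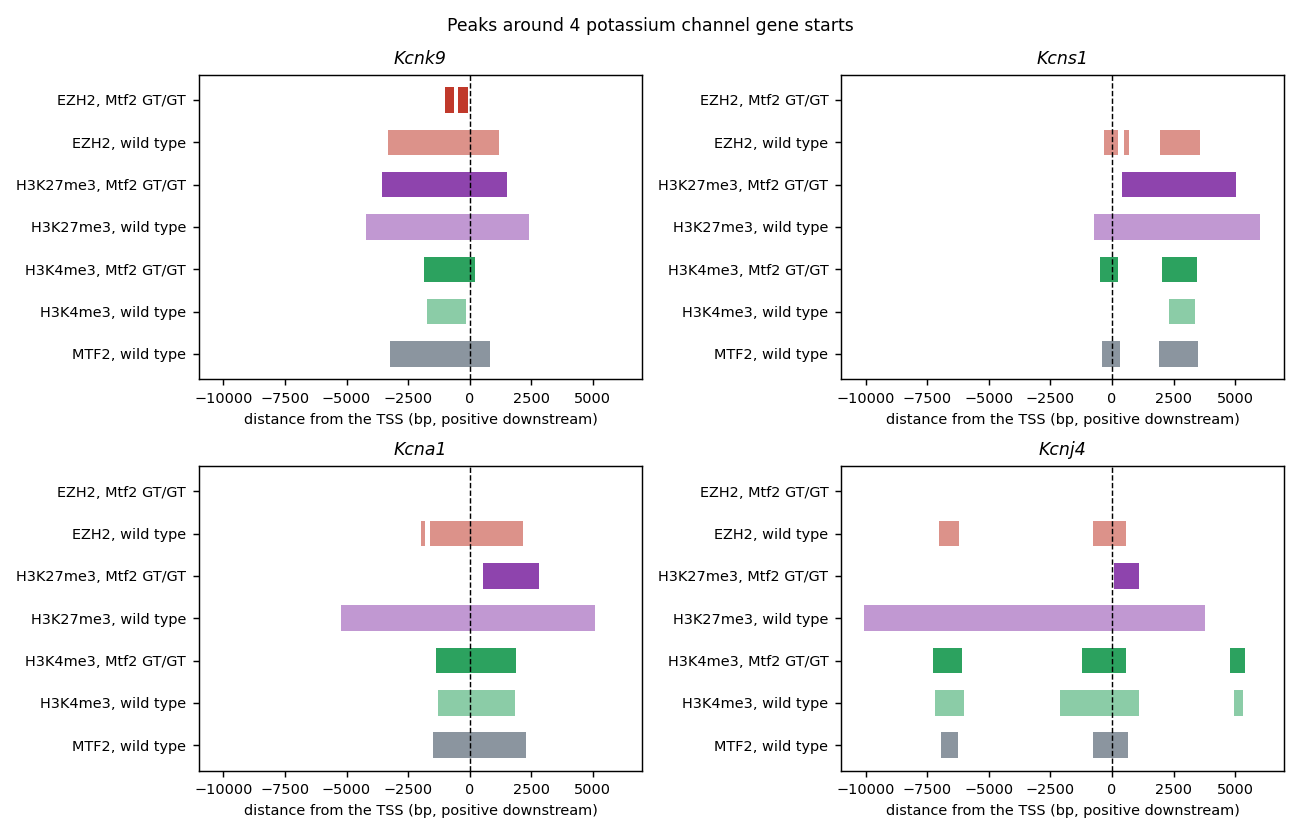
Peaks of the 7 lists around 4 starts, by distance from the TSS of the longest transcript in bp, positive downstream; full colour is Mtf2 GT/GT and pale colour wild type. Remaining H3K27me3 spans the start at Kcnk9 and begins downstream of it at Kcns1 (400 bp), Kcna1 (532 bp) and Kcnj4 (68 bp).

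Promoters that kept H3K27me3 had wide domains in wild-type cells, and many wide domains were lost. The wild-type H3K27me3 peak had a median of 6757 bp (5899 to 13843 bp) at the 9 promoters that kept it and 4864 bp (876 to 11165 bp) at the 56 that lost it, against 10160 and 3881 bp over all genes. All genes with wild-type H3K27me3 were cut by its width into 5 classes of equal size. In the 3 narrower classes, up to 4910 bp, 0 of 4, 0 of 13 and 0 of 12 potassium channel domains were kept, against 0.847, 2.29 and 5.20% of all genes. In the next class, up to 6903 bp, 6 of 27 were kept (22.2%), against 12.7% of all genes, and in the widest class 3 of 9 (33.3%), against 48.7%. MTF2 peaks had a median of 2173 bp at the promoters that kept H3K27me3 and 1088 bp at those that lost it, against 2861 and 998 bp over all genes. Kcns1, which kept H3K27me3, nevertheless had MTF2 and EZH2 promoter peaks of only 700 and 574 bp.

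**Figure D3:**
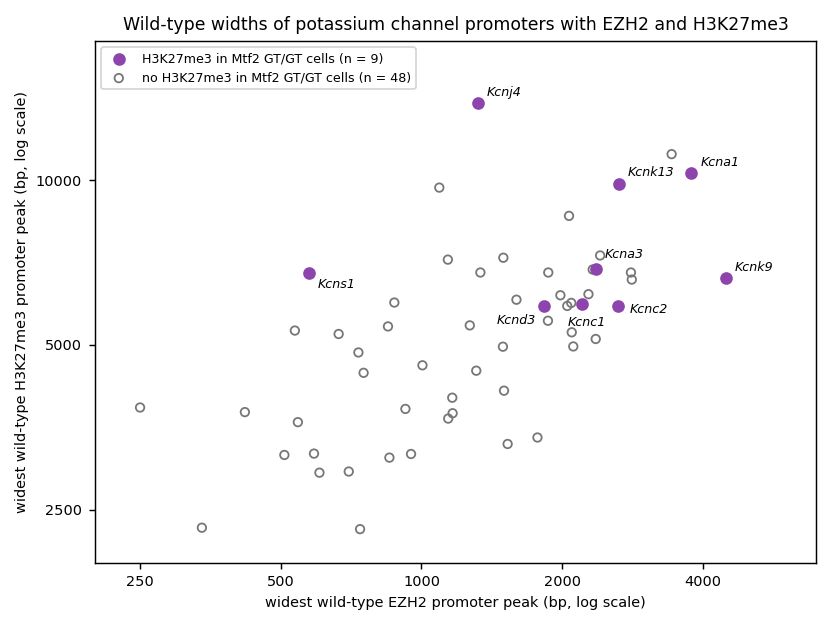
Width in bp of the widest wild-type EZH2 peak (horizontal, log scale) and H3K27me3 peak (vertical, log scale) at the 57 promoters with both; filled points kept H3K27me3 in Mtf2 GT/GT cells. The 9 filled points lie at 5899 bp of H3K27me3 or more, among open points of similar width.

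H3K4me3 around these starts covered slightly more DNA in Mtf2 GT/GT cells by the median, and over all genes slightly less. Covered length was taken within 3 kb of the TSS of the longest transcript, for genes with H3K4me3 there in both lists. The median was 1857 bp in Mtf2 GT/GT cells and 1774 bp in wild-type cells over 70 potassium channel genes, and the gene-trap value was higher at 42 of them (60.0%), against 29.7% of all genes. The median difference was 59 bp for potassium channels and -148 bp for all genes. Among genes with MTF2 in wild-type cells the gap was smaller: 33 of 53 potassium channel genes (62.3%) were higher in Mtf2 GT/GT cells, against 51.4% of all genes with MTF2. Without any of the PRC2 marks 5 of 9 potassium channel genes were higher, against 21.4% of all such genes. The lists of the 2 genotypes have unknown depths, and the part of depth in these lengths was not tested.

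Single genes differed by more than these medians. Kcns1 had 1714 bp in Mtf2 GT/GT cells and 703 bp in wild-type cells, and Kcnk1, a weakly rectifying K2P channel, had 3448 bp in Mtf2 GT/GT cells and 2482 bp in wild-type cells. Kcnma1 had 2672 bp in Mtf2 GT/GT cells and 2013 bp in wild-type cells, and its partner Kcnmb4 had 2757 bp in Mtf2 GT/GT cells and 2082 bp in wild-type cells. In the other direction Kcnj4 had 1817 bp in Mtf2 GT/GT cells and 3184 bp in wild-type cells, and Kcnip2 had 2775 bp in Mtf2 GT/GT cells and 3921 bp in wild-type cells. The start of the longest Kcnip3 transcript had 0 bp in Mtf2 GT/GT cells and 1575 bp in wild-type cells, while the other start of that gene kept an H3K4me3 peak of 3262 bp.

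**Figure D4:**
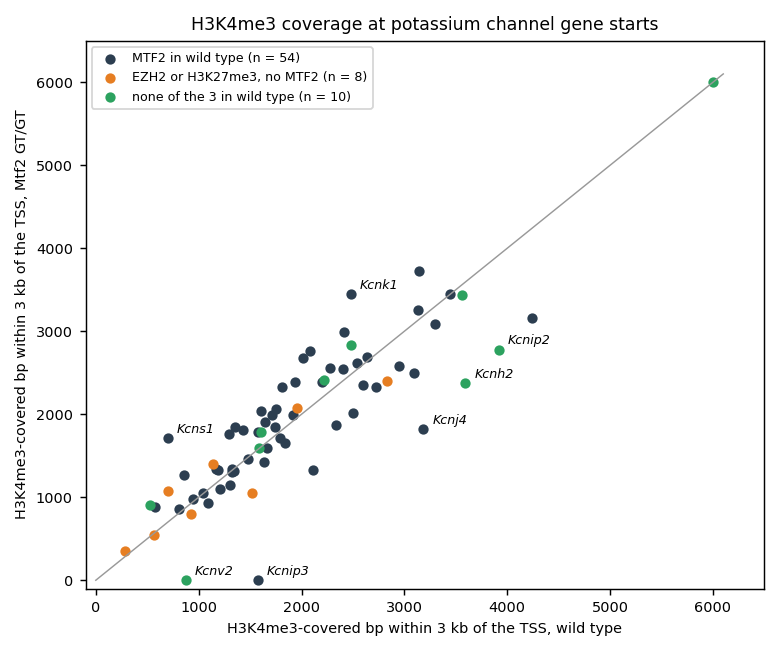
Base pairs covered by H3K4me3 peaks within 3 kb of the TSS in Mtf2 GT/GT cells (vertical) and wild-type cells (horizontal), 1 point per potassium channel gene; the line marks equal values. Kcns1 (1714 against 703 bp) lies above the line, and Kcnj4 (1817 against 3184 bp), Kcnv2 and Kcnip3 (both 0 bp in Mtf2 GT/GT cells) lie below it.

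CpG was densest at promoters with all 4 marks and sparsest at those with none. Classes of CpG content were taken at the start of the longest transcript. In each, the share of potassium channel genes with MTF2 at any start was above that of all genes. In the poorest class and the next, nearly all of these potassium channel genes had MTF2 only at another start than the one whose CpG was counted. In the 2001 bp around the TSS of the longest transcript, CpG per 100 bp had a median of 4.85 (0.70 to 11.1) at the 55 potassium channel promoters with all 4 marks, 3.50 (1.65 to 7.00) at the 9 with H3K4me3 alone and 1.22 (0.450 to 2.30) at the 16 with none. Over all genes these states had medians of 5.0, 4.25 and 0.750. Kcng3 was the richest, with 11.1, and Kcne3 was the poorest promoter with MTF2, with 0.70 at the start of its longest transcript and 2.85 at its richest start. Kcnk5, with 4.45, had no MTF2.

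With all genes cut by CpG content into 5 classes of equal size, MTF2 was found at 1 of 5, 5 of 23, 14 of 21, 15 of 17 and 22 of 25 potassium channel promoters from the poorest to the richest class. These are 20.0, 21.7, 66.7, 88.2 and 88.0%, against 0.761, 5.0, 18.9, 23.8 and 33.0% of all genes. MTF2 was counted at any start here. Kcne3 in the poorest class, and Kcnb2, Kcnip3, Kcnip4 and Kcnj6 in the next, had it only at a start other than that of the longest transcript. The higher shares in these classes therefore do not describe the starts whose CpG was counted. Shares by class at that start alone were not computed. Within MTF2 promoter peaks CpG per 100 bp had a median of 6.99 for potassium channels (68 peaks) and 6.91 for all genes (3866 peaks). Across 57 potassium channel genes promoter CpG and MTF2 width had a Spearman rho of 0.63, against 0.34 across 3401 genes, a description over genes that share 1 list. The trinucleotides GCG or CGC, which are the same motif on the 2 strands and contain a CpG, occurred in 98.2% of all 20720 such windows, so their presence alone set few promoters apart. In the first of the sequences of Kcnk9 above, a unit of 13 bases recurs 5 times at steps of 18 bases, and 76.0% of its bases are G or C.

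**Figure D5:**
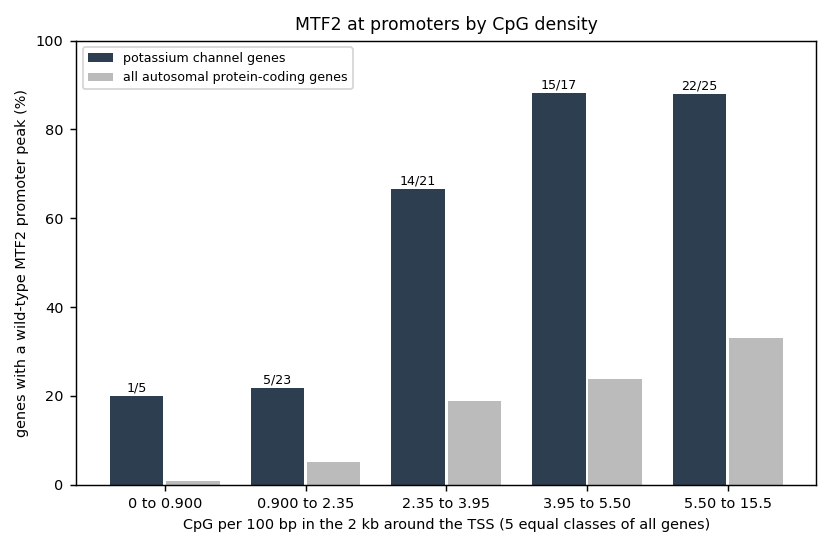
Share of promoters with a wild-type MTF2 peak at any start (%, vertical) by CpG per 100 bp in the 2 kb around the TSS of the longest transcript (5 equal classes of all genes, horizontal), for potassium channel genes (dark, counts above) and all autosomal protein-coding genes (grey). Potassium channels stand at 88.2 and 88.0% in the 2 richest classes, against 23.8 and 33.0%.

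Partners and other ion channels gave values for comparison, from lists chosen by name. Over all genes H3K27me3 was at 2.82% of promoters in Mtf2 GT/GT cells and 20.0% in wild-type cells. Among 13 potassium channel partners outside the symbol rule, it was at 1 promoter in Mtf2 GT/GT cells (7.69%) and at 7 in wild-type cells (53.8%). The 1 was Lrrc26, an auxiliary subunit of the large-conductance channel, with 421 bp in Mtf2 GT/GT cells and 4766 bp in wild-type cells. Dpp6 and Dpp10, partners of Kv4 channels, and Abcc8, the sulfonylurea receptor, had H3K27me3 in wild-type cells only. Calcium channel genes had H3K27me3 at 2 of 25 promoters in Mtf2 GT/GT cells, Cacna1c and Cacna1g, and at 17 in wild-type cells. Of 14 sodium channel genes 1 had H3K27me3 in Mtf2 GT/GT cells (7.14%) and 4 in wild-type cells (28.6%). Of 9 HCN and CNG genes 0 had it in Mtf2 GT/GT cells and 3 in wild-type cells (33.3%). Wild-type MTF2 was at 53.8% of the partners, 28.6% of sodium channel genes and 22.2% of HCN and CNG genes, against 16.4% over all genes. None of these genes had EZH2 in Mtf2 GT/GT cells.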

How the data were processed

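Reads were 75 bases long, per the labels' protocols. CASAVA, BWA (version 0.7.10-r789), MACS2 (version 2.7) and the build mm10, also called GRCm38, are named without roles, per the submitters' processing notes. The authors deposited lists of region positions, with no height, score or p-value, and the sources used here do not state the threshold, the control, how libraries were combined, or what MAnorm and unbiased in the list names mean. Both libraries of a group name 1 list, so no replicate error exists, depth per sample is unknown, and intervals cover counting error only.

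Starts were converted to positions counted from 1. Peaks were assigned to a promoter at an overlap of at least 1 bp with the 1 kb around any protein-coding TSS of GENCODE M21. Kept means that a gene-trap peak also touched the window, and lost that none did. Widths are of the widest promoter peak. Counting was tested on simulated peaks. Python 3.11.15, numpy 2.4.6 and scipy 1.17.1 were used. Shares have exact Clopper-Pearson 95% intervals, and alternatives changed the window, overlap, peak width and choice of TSS. Genes were named by rule: the 3 widest MTF2, EZH2 and H3K27me3 peaks of each class, all that kept EZH2 or H3K27me3, all with an H3K4me3 difference, all with partial combinations, and the 5 widest H3K4me3 peaks without PRC2 marks; other genes named were chosen after their values were seen. The members and lists were chosen with earlier results of these data known. Kcnd1 on chromosome X was left out as not autosomal. A few genes and sequences are counted in the totals and are otherwise not reported here.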

Additional observations from a re-analysis of the deposited data

How the results depend on the processing

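Of the 94 values recomputed under alternatives, 85 stayed close to the value reported, though some of these shifted. With a window of 500 bp, H3K27me3 was at 6 promoters in Mtf2 GT/GT cells (6.59%), against 9 (9.89%) with the window used. It was kept at 9.23% of the promoters with it in wild-type cells, against 13.8%. With the TSS itself required inside the peak, EZH2 was at 0% of potassium channel promoters in Mtf2 GT/GT cells and kept at 0%, H3K27me3 was at 3.30% and kept at 5.0%, and H3K4me3 was in Mtf2 GT/GT cells only at 2 promoters, Kcnk9 and Kcns1, and in wild-type cells only at Kcng2 in place of Kcnv2. With peaks of at least 500 bp only, EZH2 was at 0% in Mtf2 GT/GT cells and kept at 0%, since both Kcnk9 peaks are narrower. With a window of 2.5 kb, H3K4me3 was in Mtf2 GT/GT cells only at 0 promoters, because the second H3K4me3 peak of Kcns1 then counts in wild-type cells. With 1 TSS per gene, H3K4me3 was in wild-type cells only at 2 promoters, Kcnip3 and Kcnv2. In wild-type cells the MTF2 share ranged over 52.7 to 64.8%, that of EZH2 over 56.0 to 65.9%, that of H3K27me3 over 65.9 to 71.4% and that of H3K4me3 over 73.6 to 83.5%. Leaving out peaks that reach another gene, chosen after seeing the data, changed H3K4me3 alone of the 7 shares, to 78.0% in both genotypes. No paired analysis was possible because each list stands for both libraries of a group, and for the same reason no library could be left out. Without read counts a narrow or missing peak, such as those of 179 to 500 bp, cannot be separated from low depth.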

Other observations

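Kcnq1ot1, the long non-coding RNA that starts inside Kcnq1 on the opposite strand and controls its imprinted domain, is no protein-coding gene and was outside the rule. Its start, at position 143296549 of chromosome 7, had an H3K4me3 peak of 3599 bp in Mtf2 GT/GT cells and 5415 bp in wild-type cells. In wild-type cells no MTF2 peak touched that start, and no EZH2 or H3K27me3 peak did in either genotype. The Kcnq1 promoter carried all 4 marks in wild-type cells.

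Several genes without MTF2 at the start had it within the gene in wild-type cells. Kcnj9 had a body peak of 1382 bp of MTF2 with 1472 bp of EZH2, Kcng4 one of 1019 bp with 909 bp of EZH2, and Kcnn4 one of 399 bp with 503 bp of EZH2. Kcnj14, without any promoter peak, had 464 bp of MTF2 and 2582 bp of H3K27me3 in its body. None of these had EZH2 or H3K27me3 body peaks in Mtf2 GT/GT cells.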
